A study of Canis lupus familiaris with 15 samples.

Results

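The NDRG genes (N-myc downstream regulated genes) were followed through 15 primary canine osteosarcomas on the Affymetrix Canine Genome 2.0 array. All 4 members, NDRG1, NDRG2, NDRG3 and NDRG4, had at least 1 probeset with a single gene symbol, among 15115 named genes, and together they held 9 of the 42860 probesets tested. The family was chosen by a measured value of these same tumors: NDRG2 met the fold change and unadjusted p criteria used to pick genes between the outcome cohorts, on 1 of its probesets. For that reason cohort differences of the NDRG probesets are given as a description, with standard errors and without a test.

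The tumors came from dogs with appendicular osteosarcoma treated by limb amputation and then by doxorubicin, a platinum drug or both, and were snap frozen before any chemotherapy. The DFI < 100 cohort (8 dogs) had a disease-free interval under 100 days, and the DFI > 300 cohort (7 dogs) had one over 300 days. Age was 7.8 ± 2.28 years in DFI < 100 dogs and 10.5 ± 2.27 years in DFI > 300 dogs (SD), and all 3 giant cell tumors were in DFI < 100. The DFI < 100 dogs were 3 Greyhounds, 1 mixed-breed dog (Mix), and 1 each of Rottweiler, Labrador Ret., Doberman and Golden Ret., and the DFI > 300 dogs were 4 Mix and 1 each of Greyhound, Golden Ret. and Rottweiler. Every dog was client-owned and every tumor a whole tissue piece, so that fewer cells of a type and less RNA per cell cannot be told apart. Of the 11 measured genes of an osteoblast and bone matrix list, 7 lay above the level of the reporter controls, which are array probesets for non-dog sequences, and BGLAP, DMP1, PHEX and MEPE did not. That level was 6.79 on the log2 scale (the 95th percentile of 64 reporter controls, averaged over arrays), and the median intensity of the 15 arrays ran between 46.6 and 54.7.

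NDRG proteins share an alpha/beta hydrolase fold but are not known to act as hydrolases. In human cells NDRG1 is induced by hypoxia, by p53 and by iron depletion, is repressed by MYC and MYCN, and is phosphorylated by SGK1 and GSK3. NDRG2 is repressed by MYC in human cells and has been described as a growth suppressor in several human cancers, NDRG3 protein is stabilized by lactate in low oxygen, and NDRG4 is best known from heart and brain.

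Most NDRG signals were dim. Only the NDRG3 probeset of highest intensity had a mean above the reporter level, at 7.03 on the log2 scale, and 8 of 15 tumors lay above it. The other 8 NDRG probesets had means between -0.31 and 6.37, so their values carry a larger share of background. Intensities of different probesets were not compared with each other as amounts of RNA. Where a gene is named without a probeset, its probeset of highest mean intensity is meant.

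NDRG2 was lower in the tumors of short interval on each of its 3 probesets, by amounts that differed widely between them. On the brightest the log2 intensity ran from 4.83 to 5.82 with a median of 5.46 in DFI < 100 tumors, and from 5.34 to 6.36 with a median of 6.02 in DFI > 300 tumors. All 8 DFI < 100 tumors lay below the DFI > 300 median, 5 of the 7 DFI > 300 tumors lay above every DFI < 100 tumor, and the cohorts overlapped. The mean difference was -0.54 (standard error 0.183), or 1.45-fold.

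On the second NDRG2 probeset DFI < 100 tumors ran from 2.98 to 4.85 with a median of 3.81, and DFI > 300 tumors from 2.41 to 7.37 with a median of 5.79. Here 6 of the 7 DFI > 300 tumors stood above all DFI < 100 tumors, and the remaining one, from dog 193231, stood below them all. The mean difference was -1.54 (standard error 0.575), or 2.91-fold, which lay just outside the threshold of 3-fold (1.58 on the log2 scale).

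The dimmest NDRG2 probeset was the only one inside the criteria. Its log2 values ran from -8.20 to 1.80 with a median of -0.43 in DFI < 100 tumors, and from -0.42 to 4.68 with a median of 3.05 in DFI > 300 tumors. Every one of these values was below the reporter level, and the lowest was 0.00339 on the linear scale. The mean difference was -4.49 (standard error 1.472), or 22.4-fold, and with 16 added to each intensity before the logarithm it was -0.53. Over all probesets 79 of 42860 (0.184%) met the criteria of more than 3-fold and an unadjusted limma p under 0.05 with a lower level in DFI < 100. No probeset passed limma's adjustment over all of them, with 1578 at an unadjusted p under 0.05.

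The 3 NDRG2 probesets ranked the tumors alike. Spearman's rho between them was 0.83, 0.87 and 0.89 over the 15 tumors, and Pearson's r was 0.84, 0.72 and 0.72, as a description of probes for the same transcript. Tumor 193231 was the lowest DFI > 300 tumor on each of them, at 5.34, 2.41 and -0.42, and without it the differences were -0.64, -2.06 and -5.01. Giant cell tumors were all in DFI < 100, and among osteoblastic tumors the differences were -0.56, -1.46 and -3.25. With age as a covariate they were -0.60, -1.75 and -5.97, and without Greyhounds -0.58, -1.50 and -6.31.

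Lists of other cell types were read beside NDRG2. The nerve and Schwann cell list, of which 1 of 9 measured genes (PMP22) lay above the reporter level and SOX10, S100B and MBP did not, had a mean log2 level of 3.26 to 4.80 in DFI < 100 tumors and 4.28 to 4.92 in DFI > 300 tumors. The skeletal muscle list, with 3 of 12 genes above the reporter level and MB, MYH1, MYH2 and MYH7 not, ranged between 4.26 and 5.37 in DFI < 100 and between 4.81 and 6.16 in DFI > 300. Of the 9 nerve genes 6 had a negative r to NDRG2 (median -0.04), and of the 12 muscle genes 9 a positive one (median 0.15). The median over all named genes was -0.04, the same as that of the nerve genes. The mean of the nerve list had an r of 0.34 to NDRG2 and that of the muscle list 0.40. The adipocyte list had 1 of 9 genes above the level and the T and NK cell list 0 of 8. More genes were above it for macrophage (8 of 9), endothelium (5 of 9), osteoclast (4 of 6) and cartilage (3 of 7). The mean of these 4 lists differed by -0.04, -0.08, 0.32 and 0.56 (DFI < 100 minus DFI > 300), against -0.88 for nerve and -0.20 for muscle. The part of these cell types in the NDRG2 difference was not tested.

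**Figure D1:**
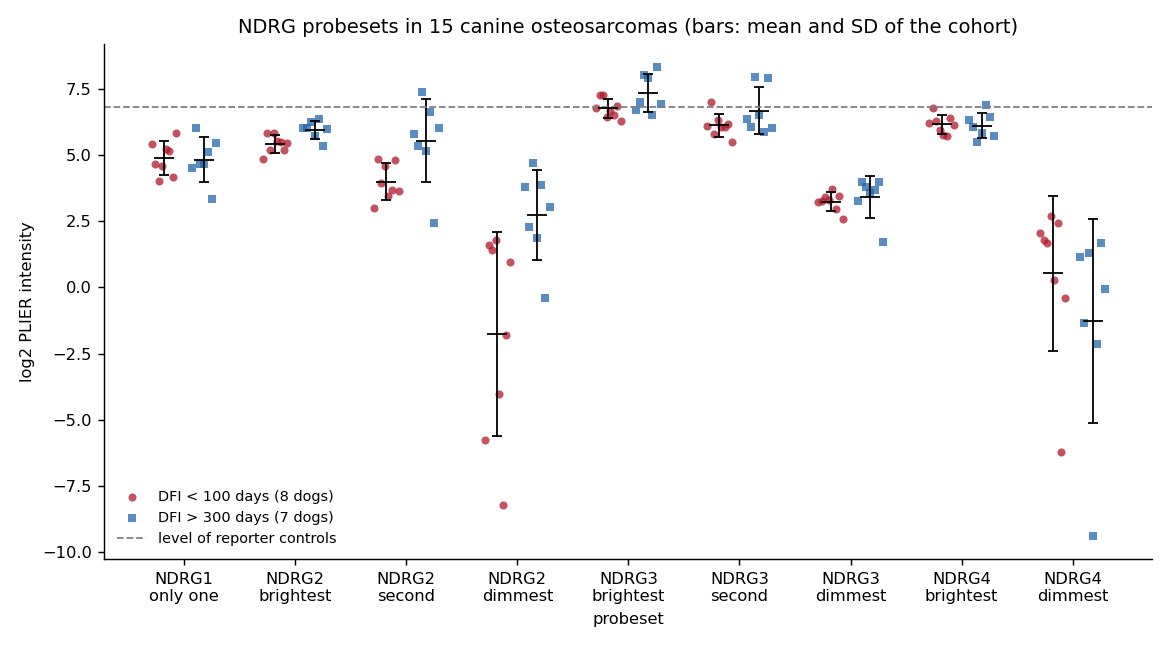
Log2 PLIER intensity of the 9 NDRG probesets, 1 point per tumor, with DFI < 100 (circles, 8 dogs) left of DFI > 300 (squares, 7 dogs), bars for the cohort mean and SD, and a dashed line at the reporter level of 6.79. The 3 NDRG2 probesets are lower in DFI < 100 with overlap, and their spread widens as the probeset gets dimmer.

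Among the other members NDRG3 had lower means in DFI < 100 on its 3 probesets, 1 of them by less than its standard error, and NDRG1 and the brighter NDRG4 probeset had cohort means within 0.06 of each other. NDRG1 (its only probeset) ran from 4.02 to 5.83 with a median of 4.89 in DFI < 100 and from 3.32 to 6.01 with a median of 4.67 in DFI > 300, a difference of 0.06 (standard error 0.363). DFI < 100 tumors thus lay wholly inside the DFI > 300 range. NDRG3 ran from 6.29 to 7.27 with a median of 6.72 in DFI < 100 and from 6.52 to 8.30 with a median of 7.00 in DFI > 300. Its difference was -0.58 (standard error 0.28), with 3 DFI > 300 tumors above every DFI < 100 tumor, from dogs 180223, 188084 and 193231, at 8.02, 7.89 and 8.30. The second NDRG3 probeset differed by -0.55 (standard error 0.339) and the dimmest by -0.18 (standard error 0.298).

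The brighter NDRG4 probeset ran from 5.73 to 6.77 with a median of 6.16 in DFI < 100 and from 5.48 to 6.89 with a median of 6.06 in DFI > 300, a difference of 0.05 (standard error 0.217). The dimmer NDRG4 probeset ranged from -6.21 to 2.69 in DFI < 100 and from -9.38 to 1.66 in DFI > 300, a difference of 1.80 (standard error 1.631). Its r with the brighter one was -0.03, so that the NDRG4 probesets did not rank the tumors alike.

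NDRG1 was high in tumors where genes of glycolysis and of the hypoxia response were high, in both cohorts. PGK1, the phosphoglycerate kinase of glycolysis and a target of the hypoxia-inducible factor HIF1, was read on a bright probeset with a mean of 11.64. It ran from 11.12 to 12.41 in DFI < 100 tumors and from 10.94 to 11.89 in DFI > 300 tumors. The 5 tumors of highest PGK1, from dogs 153599, 208756, 223986, 208911 and 180119, had NDRG1 values of 5.42, 5.22, 5.83, 5.14 and 6.01, all above the NDRG1 mean of 4.85. Pearson's r was 0.58 (permutation p = 0.0221, n = 15) and Spearman's rho 0.51 (permutation p = 0.0544). Within DFI < 100 r was 0.79 (exact permutation p = 0.0241, n = 8) and within DFI > 300 it was 0.60 (exact permutation p = 0.137, n = 7). Without the dogs farthest from the NDRG1 median, 193231 and 180119, r was 0.59, and without dog 223986 it was 0.52 (permutation p = 0.0585). A limma regression of every probeset on NDRG1 gave PGK1 an adjusted p of 0.725. That regression passed 0 of 42859 probesets, with 2777 at an unadjusted p under 0.05. The relation was 1 of 13 pairs examined.

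Part of the wider list varied with NDRG1 as PGK1 did. Of 51 listed glycolysis and hypoxia genes 47 were measured, and 17 of them had an r above 0.5 to NDRG1, against 3.68% of the 15111 other named genes. P4HA2, a collagen prolyl hydroxylase, was the 1 member with an r under -0.5 (-0.52), and the median over the list was 0.35 against 0.00 for all named genes. Among glycolysis genes ALDOC, an aldolase, had an r of 0.81, SLC2A3, a glucose transporter, 0.74, GPI, the glucose-6-phosphate isomerase, 0.72 and PFKP, a phosphofructokinase, 0.63. Among hypoxia genes outside glycolysis ADM, the vasodilator adrenomedullin, had 0.79, ANKRD37 0.76, VEGFA, the angiogenic growth factor, 0.67 and BNIP3L, a mitophagy receptor, 0.65. PGAM1, ALDOA, LDHA and PDK1, also glycolysis or pyruvate enzymes, had 0.23, 0.23, 0.27 and -0.08. PFKM, another phosphofructokinase, ran the other way at -0.50, just short of that cut, and at -0.53 with the cohort means removed. The list thus did not vary as a whole. All of these are Pearson's r over the same 15 tumors and the same NDRG1 values, and no list was tested.

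ALDOC had its lowest values of 6.77 and 7.18 in tumors 184844 and 193231, the same ones that had the lowest NDRG1 at 4.02 and 3.32. ADM was highest at 10.97 and 10.69 in tumors 223986 and 180119, where NDRG1 was highest too, at 5.83 and 6.01. Without dogs 193231 and 180119 the r to NDRG1 was 0.69 for ALDOC and 0.66 for ADM, and with the cohort means removed it was 0.81 and 0.82. In the regression over all probesets the adjusted p was 0.618 for both.

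**Figure D2:**
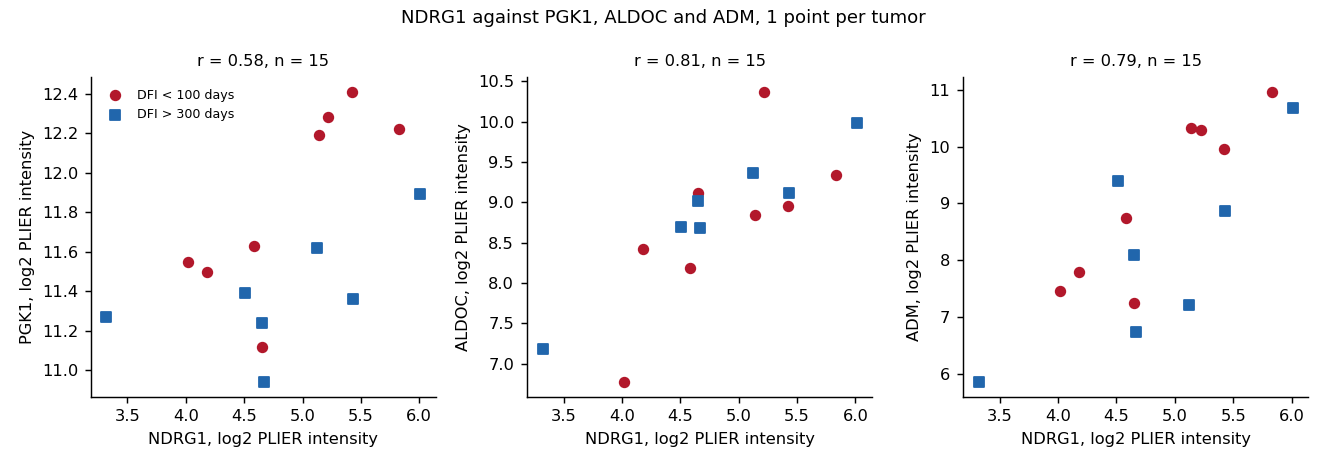
NDRG1 (x axis) against PGK1, ALDOC and ADM (y axes), all in log2 PLIER intensity, 1 point per tumor, with DFI < 100 as circles and DFI > 300 as squares. All 3 genes are higher where NDRG1 is higher, in both cohorts, with r = 0.58, 0.81 and 0.79 over 15 tumors.

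The HIF pathway itself and the other named regulators of NDRG1 were read the same way. HIF1A, the oxygen-regulated subunit of HIF1, had an r of 0.68 to NDRG1 and EPAS1, the HIF2 subunit, 0.53, while ARNT, their partner, had 0.22 and EGLN1, the oxygen-sensing prolyl hydroxylase, -0.25. In total 2 of 8 pathway regulators were above 0.5 by r and 1 by Spearman's rho. The share by r was the same 3.68% of all named genes, and 8 genes are too few to set against it. Of 10 measured p53 genes 1 was above 0.5, CDKN1A, the cell cycle inhibitor p21, at 0.56, and 1 gene of 10 is too few to set against that share. None of the 8 kinases and kinase partners of NDRG1 was above 0.5, and 1, the dim SGK2, was under -0.5 at -0.61 (3.83% of all named genes were under -0.5). SGK1 had 0.12, MTOR -0.34, AKT1 -0.14 and GSK3B -0.13, values of their RNA and not of their activity. The 8 measured genes of iron uptake and storage ranged between -0.25 and 0.34. MYC, which lies 5 measured genes from NDRG1 on the same dog chromosome, had an r of 0.06 (permutation p = 0.821).

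Beyond the lists, the genes most like NDRG1 among 6447 named genes above the reporter level were KCNE3, a potassium channel subunit, at 0.82, then ALDOC, ELF1, an ETS transcription factor, at 0.80, ADM, and RRAS, a small GTPase, at 0.78. The most opposed were H3-3A, a histone H3 variant, at -0.78, GPATCH4 at -0.78, DCAF6 at -0.77, RBBP8, a DNA end resection factor, at -0.77 and SSR2, a subunit of the translocon-associated complex, at -0.76. Their adjusted p in the regression was between 0.618 and 0.703.

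NDRG3 was low in tumors where many of the same genes were high. Of the 47 glycolysis and hypoxia genes 40 had a negative r to NDRG3, and 9 had an r under -0.5, against 2.40% of all other named genes. None was above 0.5 (2.77% of all were), and the median was -0.27 against 0.01. PFKP had -0.76, PGK1 -0.67, ADM -0.70, FAM162A, a hypoxia-induced mitochondrial protein, -0.60 and BNIP3L -0.55. Outside the list SDHAF4, an assembly factor of respiratory complex II, had -0.70, and RPS28 and CDKN1A had -0.69 each, among the 5 lowest. Among the 36 list genes above the reporter level 6 were under -0.5 on the brightest NDRG3 probeset, 8 on the second and 1 on the dimmest, against 2.37%, 3.72% and 5.04% of all genes above that level, so that the dimmest showed no excess.

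PGK1 and NDRG3 were opposed in both cohorts, with an r of -0.65 (exact permutation p = 0.0931, n = 8) in DFI < 100 and -0.65 (exact permutation p = 0.12, n = 7) in DFI > 300. Over all tumors r was -0.67 (permutation p = 0.00636), rho -0.72 (permutation p = 0.00343) and r without dogs 193231 and 180223 -0.58. The adjusted p over all probesets was 1.0. On the second NDRG3 probeset r to PGK1 was -0.66 and on the dimmest -0.12. To the second and dimmest PGK1 probesets r was -0.49 and -0.52 on the brightest NDRG3 probeset. It was -0.33 and -0.22 on the second NDRG3 probeset, and 0.15 and -0.01 on the dimmest. NDRG3 and NDRG1 had an r of -0.58 (permutation p = 0.023, n = 15) and a rho of -0.39 (permutation p = 0.148). Tumor 193231 had the highest NDRG3 (8.30) and the lowest NDRG1 (3.32), and without it r was -0.36. The regression on NDRG3 passed 1 of 42859 probesets, lower with NDRG3, with a mean log2 intensity of -0.38 and no gene symbol, and with the cohort as a covariate it passed 0 (1902 and 2486 at an unadjusted p under 0.05).

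On its brightest probeset NDRG2 was opposed to the genes of DNA replication and mitosis. All 22 measured genes of 25 on a proliferation list had a negative r to NDRG2, with a median of -0.56, and 12 were under -0.5. The share was 5.27% of all other named genes and 7.93% of those above the reporter level, where all 22 lay. PCNA, the replication clamp, and MCM6, of the replicative helicase, had -0.72 each. MCM2, of the same helicase, and RRM2, the ribonucleotide reductase subunit, had -0.71 each. FOXM1, a mitotic transcription factor, had -0.09 and MCM3 -0.16. With the cohort means removed 11 genes were under -0.5, against 8.89% of genes above the reporter level. The count was 7 without dog 190030, whose tumor had the highest NDRG2 (6.36) and the lowest mean over the list (8.10).

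The other NDRG2 probesets gave lower counts. The second had 1 of the 22 genes under -0.5, no excess over the 7.99% of the 6447 other genes above the reporter level, and a median of -0.32. The dimmest had 2, against 3.46%, and a median of -0.20, while on the brightest the share of such genes was 7.93%. The difference between the probesets was not tested.

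MCM6 ran from 11.65 to 12.51 in DFI < 100 tumors and from 10.95 to 11.83 in DFI > 300 tumors. Its r to NDRG2 was -0.75 within DFI < 100 and -0.16 within DFI > 300, whereas PCNA had -0.73 and -0.61. The difference between the cohorts was not tested. Their adjusted p in the regression on NDRG2 was 0.598 and 0.563.

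MYC, the transcription factor that represses NDRG2 in human cells, ran from 6.18 to 8.13 in DFI < 100 and from 5.40 to 7.81 in DFI > 300, near the reporter level in many tumors. Its r to NDRG2 was -0.38 (permutation p = 0.166, n = 15), -0.13 with the cohort means removed and -0.20 without dog 190030. MLX, a partner in the MYC and MAX network, had -0.79, and it ran from 8.67 to 9.57 in DFI < 100 and from 8.70 to 9.78 in DFI > 300. MLX was the 1 gene of that 10-gene list under -0.5, and 7 of the 10 had a positive r, with a list median of 0.16 and MXI1, a MYC antagonist, at 0.31. Of 20 measured MYC-induced genes 17 had a negative r to NDRG2. The nucleolar proteins NOP56, NOLC1 and FBL had -0.71, -0.59 and -0.57, and NME1 had -0.55. Among the 19 above the reporter level 7 were under -0.5, against 7.93% of all genes above that level. With the cohort means removed 5 of the 19 were, against 8.89%, with FBL at -0.41 and NME1 at -0.46. By Spearman's rho 5 were under -0.5. On the other NDRG2 probesets 4 and 0 of the 19 such genes above the reporter level were under -0.5, against 7.99% and 3.46% of all, with medians of -0.23 and -0.04, so the count was not shared by all NDRG2 probesets.

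The gene most opposed to NDRG2 was SLC25A33, a mitochondrial carrier of pyrimidine nucleotides, with an r of -0.91. It ran from 8.48 to 9.51 in DFI < 100 and from 7.60 to 9.39 in DFI > 300, with its highest values in tumors 153599 (9.51), 184844 (9.49) and 193231 (9.39), where NDRG2 was 4.83, 5.20 and 5.34. Within the cohorts r was -0.87 and -0.90, and without the dogs farthest from the NDRG2 median, 153599 and 190030, it was -0.86. Its adjusted p was 0.061, the lowest in the regression on NDRG2, which passed 0 of 42859 probesets with 2864 at an unadjusted p under 0.05. Next came TUBG1, gamma-tubulin, and CDC6, a replication licensing factor, at -0.86, DHX15, a splicing helicase, at -0.85 and CSE1L, a nuclear export factor, at -0.81. The genes most like NDRG2 were FKBP9, a prolyl isomerase of the endoplasmic reticulum, at 0.84, CD81, a tetraspanin, at 0.80, SNCG at 0.79, FBLN1, a matrix protein, at 0.78 and CXCL14, a chemokine, at 0.78. Of the 11 measured bone matrix genes 2 were above 0.5 to NDRG2, SPARC at 0.63 and COL1A1 at 0.53, against 3.04% of all named genes, and with the cohort means removed they were at 0.48 and 0.29 and none of the 11 was above 0.5.

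**Figure D3:**
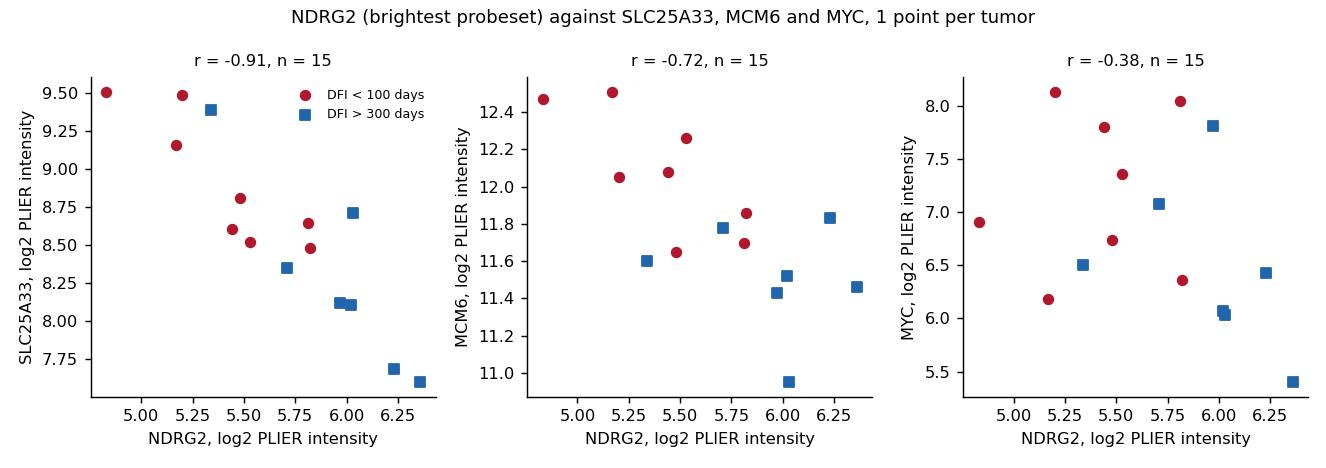
NDRG2 on its brightest probeset (x axis) against SLC25A33, MCM6 and MYC (y axes), all in log2 PLIER intensity, 1 point per tumor, with DFI < 100 as circles and DFI > 300 as squares. SLC25A33 is lower where NDRG2 is higher in both cohorts (r = -0.91), MCM6 has r = -0.72 and MYC r = -0.38 over the 15 tumors.

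**Figure D4:**
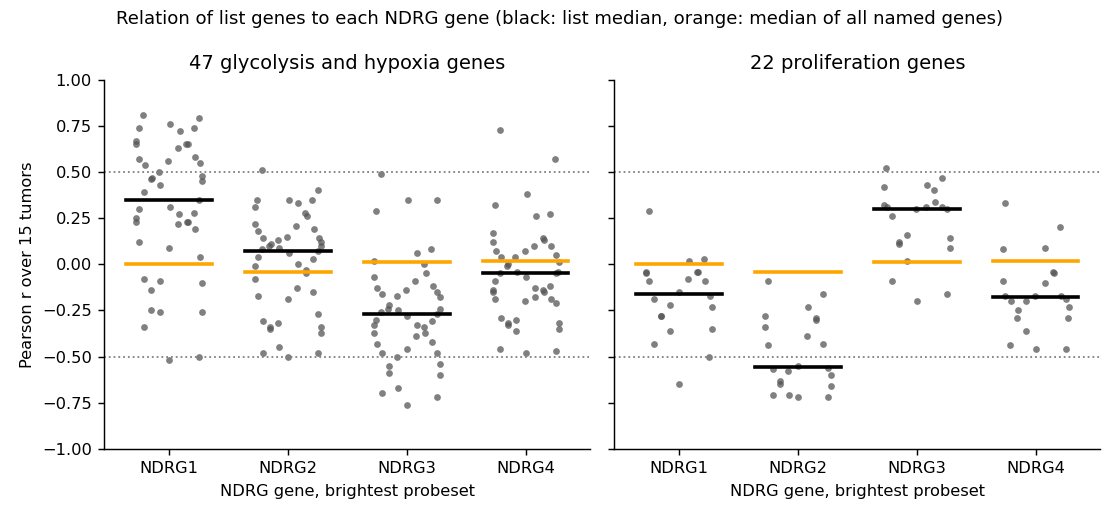
Pearson's r over 15 tumors between each NDRG gene and 47 glycolysis and hypoxia genes (left) or 22 proliferation genes (right), 1 point per gene, with the list median in black, the median of all named genes in orange and dotted lines at 0.5 and -0.5. The metabolic list has a median of 0.35 to NDRG1 and -0.27 to NDRG3, and the proliferation list -0.56 to NDRG2 and 0.30 to NDRG3.

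NDRG3 resembled the genes that lie beside it on the chromosome, a pattern noticed after the values were seen. Gene order was taken from the RefSeq annotation of UU_Cfam_GSD_1.0, and the 10 measured genes above the reporter level on either side were counted. Of these 20 neighbours 18 had a positive r to NDRG3 and 11 were above 0.5, against 3.03% of the 6276 genes on other chromosomes, with medians of 0.51 and 0.01. DSN1, a kinetochore protein and the next measured gene on one side, had 0.76, and RAB5IF, the next on the other, had 0.65. NFS1, a cysteine desulfurase, had 0.68, and PHF20, a chromatin reader, 0.62. DYNLRB1, a dynein light chain 21 measured genes away, had 0.80. Spearman's rho to NDRG3 was 0.72 for DSN1, 0.38 for RAB5IF, 0.30 for NFS1 and 0.49 for PHF20. With the cohort means removed 8 of the 20 neighbours had an r above 0.5, against 6.05% of genes on other chromosomes. Over all named genes above the reporter level the highest r to NDRG3 was that of AKR1B1, aldose reductase, at 0.84, and CCNY, a cyclin, at 0.78 and MRPS11, a mitochondrial ribosomal protein, at 0.72 were also among the 5 highest, with adjusted p between 0.753 and 1.0.

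The resemblance rested on tumors 180223 and 193231. In tumor 180223 NDRG3 stood at 8.02 against its mean of 7.03, and 17 of the 20 neighbours were above their own means, by 0.96 log2 units on average over the 20. In tumor 193231 NDRG3 stood at 8.30, and again 17 neighbours were above their means, with an average of 0.50. In tumor 188084 NDRG3 stood at 7.89, whereas 8 neighbours were above and the average was 0.05. In tumor 190030 NDRG3 stood at 6.52, and the neighbours averaged -0.51. Tumor 153599 ran the other way, with NDRG3 at 6.78, below its mean, and also 17 neighbours above theirs, by 0.19 on average, and tumor 212759 had NDRG3 at 6.84 and 15 neighbours above. Of the genes on other chromosomes 39.9% to 55.9% were above their means in each tumor. Without dogs 180223 and 193231 the count above 0.5 was 2 and the median 0.14, with only dog 180223 left out 4 and with only dog 193231 left out 7. On the second NDRG3 probeset 12 of the 20 were above 0.5, and on the dimmest 0.

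**Figure D5:**
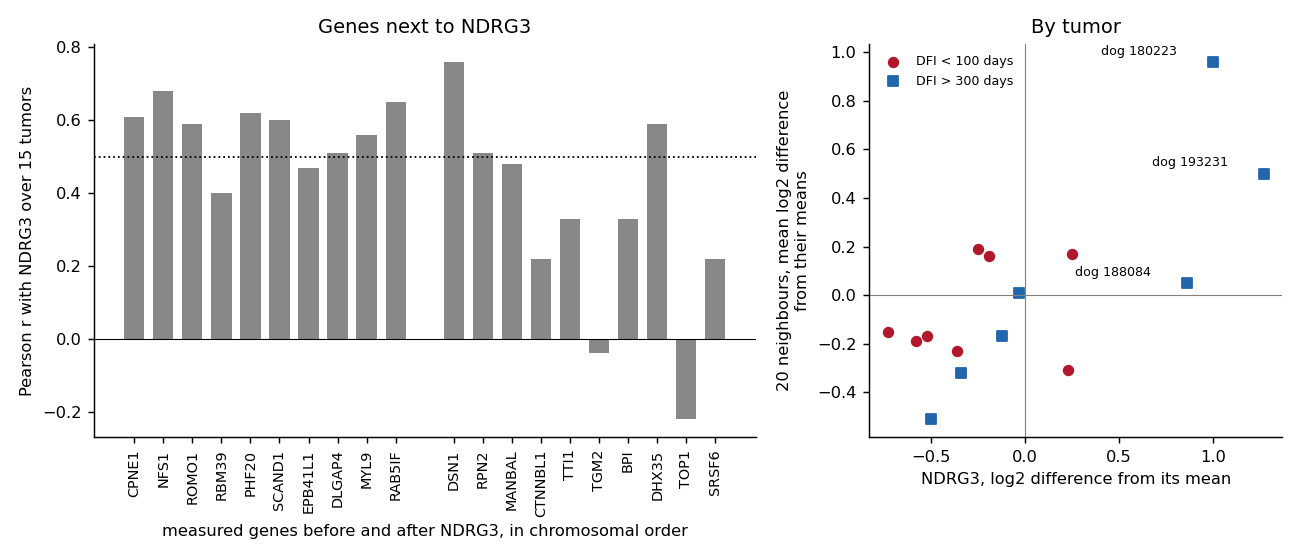
Left, Pearson's r to NDRG3 over 15 tumors for the 10 measured genes on either side of it in chromosomal order, with a dotted line at 0.5. Right, for each tumor, the log2 difference of NDRG3 from its mean (x axis) against the mean log2 difference of the 20 neighbours (y axis), with DFI < 100 as circles and DFI > 300 as squares; tumors 180223 and 193231 stand highest on both.

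The difference in likeness between the neighbours of the 4 members was not tested. For NDRG1 18 of 20 neighbours had a positive r, against 74.6% of its whole chromosome and 49.3% of genes on other chromosomes. Their median was 0.27, and 1 was above 0.5 (4.36% on other chromosomes). For NDRG4 15 were positive, against 70.9% and 38.6%, with a median of 0.20 and 2 above 0.5 (3.26%). For NDRG2 5 were positive, against 33.3% and 42.5%, with a median of -0.22 and 1 above 0.5 (3.36%). Positive r to NDRG1 and NDRG4 was thus frequent over their whole chromosomes and not only beside them.

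NDRG4 had a different set of companions. The most like it were HS1BP3 at 0.79, PVALB, the calcium buffer parvalbumin, at 0.79, TENT4B, an RNA-tailing polymerase, at 0.78, GRIN2C, a glutamate receptor subunit, at 0.77 and MYOM2, a sarcomere protein, at 0.75. The most opposed were EXOC8, of the exocyst, at -0.83, RFXANK, a regulator of MHC class II genes, at -0.82, and NFYB, MRPL30 and NEDD4L at -0.81 each. Their adjusted p was 0.613 in each case, and the regression passed 0 of 42859 probesets with 3209 at an unadjusted p under 0.05. NDRG4 also had an r of -0.63 to the 3' to 5' signal ratio of the control transcripts, a sign of RNA integrity, while the other 3 members had values between -0.17 and 0.11. To the reporter level of each array NDRG4 had an r of 0.45, and the other members had values between -0.19 and 0.24. The part of RNA integrity or of array background in the NDRG4 relations was not tested. None of the 47 glycolysis and hypoxia genes was under -0.5 to NDRG4 (4.45% of all named genes were) and 2 were above 0.5, HK2 and PFKFB4, both dim, which is no more than the 5.77% of all named genes, and none of the 22 proliferation genes passed 0.5 in either direction.

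Age and breed were fitted over all tumors. Both differ between the cohorts, and NDRG2 was chosen on the cohort difference, so its values against them are a description only. The NDRG2 slope was 0.042 log2 units per year of age on the brightest probeset (standard error 0.045) and turned to -0.021 with the cohort as a covariate. NDRG1 had a slope of -0.022 (limma standard error 0.072, adjusted p = 0.998). NDRG3 had 0.065 (limma standard error 0.061, adjusted p = 0.962), and 0.005 with the cohort as a covariate. The 4 Greyhounds had NDRG3 at 6.73 ± 0.45 and the 11 other dogs at 7.13 ± 0.64 (SD), a difference of -0.40 (limma standard error 0.342, adjusted p = 0.965), and -0.25 with the cohort as a covariate. On the dimmest NDRG3 probeset the Greyhounds averaged 2.75 ± 0.78 and the other dogs 3.53 ± 0.33, a difference of -0.78 (limma standard error 0.275), which had the lowest unadjusted p of the NDRG probesets (0.0127) and an adjusted p of 0.965. Dog 208513, a Greyhound, had 1.72 there, and without it the other 3 Greyhounds averaged 3.09 ± 0.45, a difference of -0.43, a setting chosen after seeing the data. NDRG2 on its brightest probeset stood at 5.61 ± 0.35 in Greyhounds and 5.68 ± 0.47 in other dogs, and their difference of -0.08 turned to 0.09 with the cohort as a covariate. On its second probeset it stood at 4.55 ± 1.06 in Greyhounds and 4.76 ± 1.53 in other dogs. The dimmest NDRG2 probeset went the other way, at 1.80 ± 0.91 in Greyhounds and -0.20 ± 4.27 in other dogs. Over all probesets age passed 0 of 42860 (0%, 2200 at an unadjusted p under 0.05) and Greyhound breed 0 (0%, 1906 at an unadjusted p under 0.05).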

How the data were processed

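The values were intensities that the authors made with PLIER and deposited on a linear scale. The submitters' processing notes name Affymetrix Expression Console, and the step that scaled arrays to like medians is not given in the sources used here, nor is the batch of each array, so no fit had a batch term. Each dog gave 1 array, and the number of arrays limits the precision. Here 175 control probesets were left out and log2 was taken with no offset. Symbols came from the platform annotation (29254 probesets with 1, 439 with several, 13167 with none here). Limma 3.58.1 (R 4.3.3) was fitted over 42860 probesets with Benjamini-Hochberg adjustment. It was tested on changes added to the values of these arrays, only on probesets brighter than any NDRG probeset. The methods' t-test, used only for the fold criteria, gave 62 probesets lower in DFI < 100 and 55 higher, and 0 after adjustment. Permutation tests were 2-sided with 100000 resamples, or exact under 10 values.

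Named genes were every NDRG probeset, PGK1, the 5 highest and 5 lowest r to each NDRG gene and the 4 largest absolute r of each list, above the reporter level. Others are named from a count or as exceptions, after their values were seen. Members and lists were chosen with earlier results of these data known. Alternatives were an offset of 16, quantile normalization, arithmetic means, covariates, subsets, Spearman's rho, other probesets and each dog left out.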

Additional observations from a re-analysis of the deposited data

Results flagged for a closer look

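Of 18 sets of values (9 NDRG probesets in each cohort), 3 held a tumor far from the others of its cohort by Dixon's test, and chance flags about 1 in 20. All were on the dimmest probesets. On the dimmest NDRG3 probeset, dog 208513 of DFI > 300 had 1.72, with 3.26 the next lowest. On the dimmer NDRG4 probeset, dog 212759 of DFI < 100 had -6.21, with -0.39 next, and dog 188084 of DFI > 300 had -9.38, with -2.15 next. Such negative log2 values correspond to linear intensities under 1 and were not given an offset.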

How the results depend on the processing

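Of 247 repeats of 22 results under other settings, 229 counted as unchanged, and 83 of the 97 other than leave-one-out. A cohort difference counted so if it moved by less than its SD within cohorts, whatever its sign. The small NDRG1 and NDRG4 differences changed sign in some of these repeats. Counts had to stay of like size, and correlation, age and breed results had to keep their sign and side of the threshold. Repeats with the methods' t-test kept the difference by construction. An offset of 16 moved the cohort difference of the dimmest NDRG2 probeset to -0.53; this offset compresses low values by its construction. NDRG1 and PGK1 no longer passed 0.05 by Spearman's rho (0.51), within DFI > 300 (0.60) or on the second and dimmest PGK1 probesets (0.41 and 0.13). The same held without dog 223986 (0.52). The proliferation genes opposed to NDRG2 numbered 1 and 2 on its other probesets. The neighbours like NDRG3 numbered 2 without dogs 180223 and 193231 and 0 on the dimmest probeset, settings chosen after seeing the data. With the cohort as a covariate the age slopes of the 3 NDRG2 probesets turned to -0.021, -0.079 and -0.56 and the Greyhound differences of the brighter ones to 0.09 and 0.26, none past the threshold before or after. The causes were not tested.

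Leaving out 1 dog gave cohort differences of -0.64 to -0.46, -2.06 to -1.23 and -5.01 to -3.56 for NDRG2 from brightest to dimmest, -0.18 to 0.26 for NDRG1, -0.71 to -0.42 for NDRG3 and -0.06 to 0.18 for NDRG4. The r of NDRG1 and PGK1 was 0.52 to 0.65, the metabolic genes like NDRG1 numbered 14 to 21, the proliferation genes opposed to NDRG2 7 to 16 (7 without dog 190030) and the neighbours like NDRG3 4 to 13 (4 without dog 180223, 7 without dog 193231). No paired analysis was possible because each dog gave 1 tumor. With 8 of 9 NDRG probesets below the reporter level, small differences in them are near the background of the array.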

Other observations

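The proliferation list had a median r of 0.30 to NDRG3, against 0.01 for all named genes, with 19 of 22 genes positive. The count above 0.5 was 1, the survivin gene BIRC5 at 0.52, which is near the 2.77% of all named genes. On the second NDRG3 probeset the median was -0.01 and on the dimmest -0.31, so the positive median was not shared by the probesets of NDRG3.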
